A study of Homo sapiens with 2 samples.

Results

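The translation initiation factors are the proteins that bring a ribosome, the initiator tRNA and an mRNA together at the start codon. Their genes were taken by name: every symbol that begins with EIF1 to EIF6, apart from the EIF2AK kinases, the Y-linked gene, antisense names and pseudogene names. This gave 50 genes of the 52402 symbols in the count files. Each of 2 RNA-seq libraries came from DLD1 cells, an established line from a human colorectal adenocarcinoma. One carries the label HERV-R knockout (HERV-R is an endogenous retrovirus family of the human genome) and the other is the wild-type control. Both carry the same treatment text, in which Cas9 and guide RNA vectors entered the cells with lipofectamine and hygromycin then selected the colonies. The labels do not say whether each library is 1 clone or which vectors the control received.

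There was 1 library per group, so no difference below has a replicate check and no test of the knockout was possible. The knockout-labelled library held 16406308 counts and the control library 21881122 counts. ERV3-1, the gene that encodes the HERV-R envelope, had 125 counts (7.62 CPM) in the knockout-labelled library and 127 counts (5.80 CPM) in the control, so its RNA was not lower under the knockout label. A count over a whole gene does not see a small edit, and every direction below rests on that label. The colon epithelial marker EPCAM had 749.8 CPM in the knockout-labelled library and 701 CPM in the control. Of the 9 colon epithelial markers, 6 reached a mean of 1 CPM, and CDX1 and KRT20 were at 0 counts in both libraries. KRT18 (1741 CPM in the knockout-labelled library and 4967 CPM in the control) and KRT8 (1875 and 4138 CPM) were at least 2-fold lower under the knockout label, and CDX2 (298 and 99.4 CPM) at least 2-fold higher. The part of such differences between the cultures in the results below was not tested. Summed markers of other cell types stayed low. The 6 fibroblast markers summed to 2.68 CPM in the knockout-labelled library and 5.76 CPM in the control. Most of this was PDGFRB (2.32 CPM in the knockout-labelled library and 4.66 CPM in the control), which reached a mean of 1 CPM. COL1A1 had 6 counts in the knockout-labelled library and 24 in the control, and COL1A2, COL3A1, DCN and LUM had 0 counts in both. The 6 blood and immune markers summed to 0.427 and 0.183 CPM and the 4 endothelial markers to 0.427 and 0.640 CPM, again with the knockout-labelled library named first. These were mostly CD14 (6 and 4 counts) and VWF (7 and 13 counts), in the same order. PTPRC, CD3E, CDH5 and KDR were at 0 counts in both.

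Initiation begins when the eIF2 complex carries the initiator tRNA to the small ribosomal subunit, together with eIF1, eIF1A, eIF3 and eIF5. The eIF4F complex (the cap-binding protein eIF4E, the scaffold eIF4G and the RNA helicase eIF4A) recruits this assembly to the mRNA cap. The assembly scans to a start codon, eIF5 triggers hydrolysis of the GTP held by eIF2, eIF5B joins the large subunit, and eIF2B recharges eIF2 for another round. Phosphorylation of eIF2 and sequestration of eIF4E by the 4E-BP proteins are the classical brakes on the process, and several of its factors are raised in colorectal and other cancers.

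CPM are counts per 1000000 counts of the library. A mean of 1 CPM or more was required for comparison, which left 47 of the 50 initiation factor genes and 12644 of all genes. The log2 ratio divides the CPM of the knockout-labelled library by that of the control, after 1 CPM is added to each, and a gene counted as higher or lower when this ratio reached 1 or -1. Single ratios without the added CPM are given with exact 95% intervals, which cover counting error only and say nothing of the spread between cultures. The 3 genes left out were EIF3K, with 0 counts on both of its 2 rows in both libraries, EIF4E1B, with 0 counts in both, and EIF4EBP3, with 6 counts in the knockout-labelled library and 0 in the control. EIF3K encodes a subunit of eIF3 and is listed at 0 while every other subunit gene had counts; the reason was not tested.

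Of the 47 genes, 5 were at least 2-fold higher in the knockout-labelled library: EIF5, EIF5AL1, EIF2B1, EIF4G1 and EIF3B. That is 10.6% of the members, beside 6.78% of all genes compared. Another 2, EIF4E3 and EIF1, were at least 2-fold lower, which is 4.26% of the members beside 5.69% of all genes. The remaining 40 lay between. A 1.5-fold rule gave 9 higher (19.1% of members, beside 20.3% of all genes) and 5 lower (10.6%, beside 13.2%). The members' median log2 ratio was 0.10, beside 0.12 for all genes, and 26 members lay above 0 (58.1% of all genes did) and 21 below (41.9% of all genes did). With each of the 3 other scalings 2 members were higher (EIF5 and EIF5AL1) and the same 2 were lower. Of all genes, 4.30% to 4.75% were higher and 6.95% to 7.47% lower under these scalings. These scalings shift the log2 ratio of CPM by -0.12, -0.14 and -0.16, and somewhat less for low genes once 1 CPM is added. With them 22 or 23 members lay above 0 and 24 or 25 below, so the balance around 0 turned, and the members' median was -0.03 to -0.06. EIF2S2, EIF1AD and EIF4H changed sign under all 3 scalings, and EIF3I lay just below 0 under upper quartile and median of gene ratios scaling. The counting intervals below belong to the scaling by library total and do not hold this shift. All initiation factor genes together took 1.34% of the counts in the knockout-labelled library and 1.21% in the control. The members' counts and median were thus near those of all genes, and the differences lay between single factors. In bulk RNA a lower level in every cell and fewer cells that carry the RNA cannot be told apart.

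**Figure D1:**
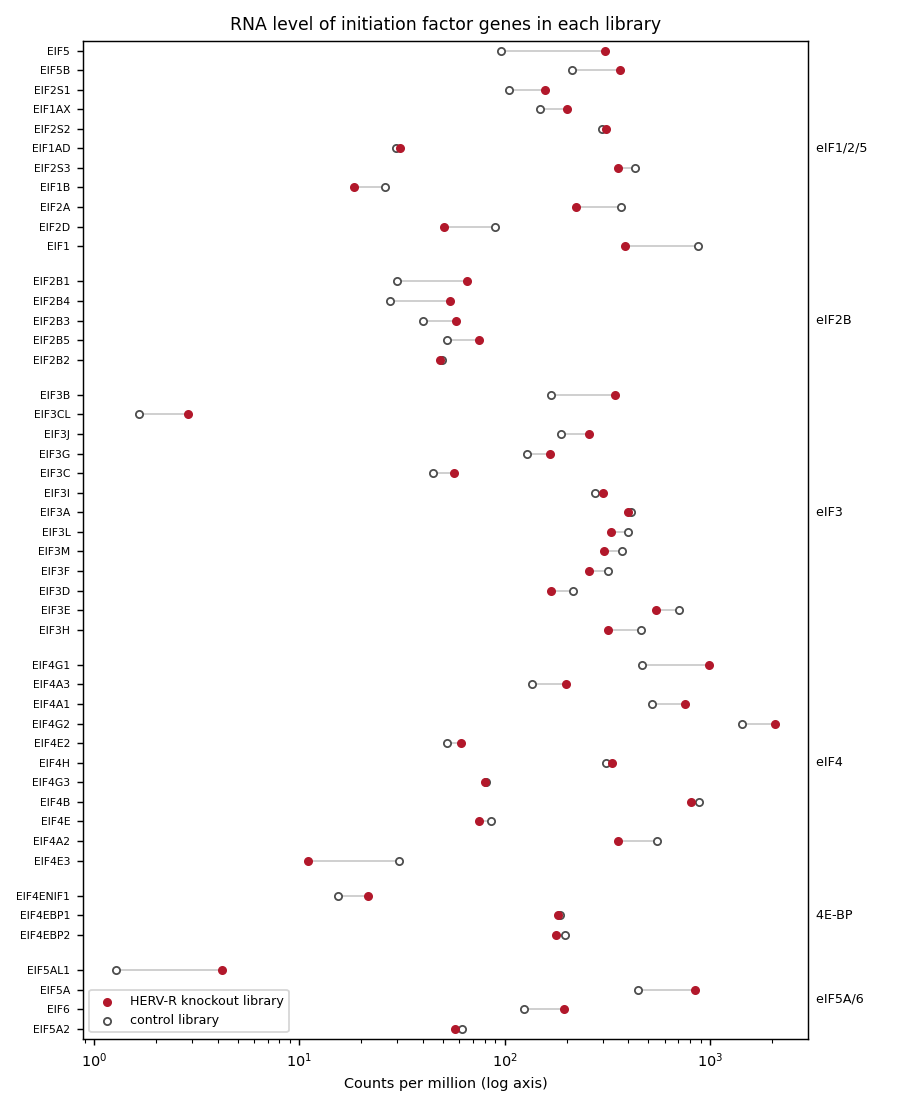
Level of each of the 47 compared genes in CPM on a log axis, filled points for the knockout-labelled library and open points for the control, grouped by complex. EIF4G2 has the highest CPM in both libraries, 2064 in the knockout-labelled library and 1429.9 in the control (not divided by gene length), and the widest gaps belong to EIF5, EIF5AL1 and EIF4E3.

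EIF5 and EIF1, which act together during scanning, differed in opposite directions. EIF5, the GTPase-activating protein of eIF2, had 5061 counts (308 CPM) in the knockout-labelled library and 2089 counts (95.5 CPM) in the control, a ratio of 3.23 (3.07 to 3.40). EIF1, which guards against starting at wrong codons and counteracts eIF5, had 6344 counts (387 CPM) in the knockout-labelled library and 19021 counts (869 CPM) in the control, 2.25-fold lower (2.18 to 2.31). These were the member with the highest log2 ratio (1.68) and the one with the second lowest (-1.17). For every count of EIF1 there were 0.798 counts of EIF5 in the knockout-labelled library and 0.110 in the control, a 7.26-fold difference that no scaling of the libraries can alter. As both genes lie near the ends of the members' range, a large difference follows from the choice of this pair. EIF1B, the paralogue of EIF1, had 18.4 CPM in the knockout-labelled library and 26.0 CPM in the control, with a ratio of 0.707 (0.613 to 0.814).

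The start codons are shown because eIF1 is known to limit its own translation through the weak bases around its start codon, and eIF5 through upstream ATG triplets. Each line gives 12 bases before the start codon, the start codon in capitals and 4 bases after it, from the principal transcript of GENCODE 29.
EIF1: gaatcgtatcgtATGtccg
EIF1B: cactagtatcgcATGtcca
EIF5: taataagccaaaATGtctg
EIF3B: agcgttgggcccATGcagg
EIF4A1: tttctaaggatcATGtctg
EIF4A2: gtttttcggatcATGtctg
EIF4G2: caagccgccaaaGTGgaga
An efficient start usually has a purine at position -3 or a G at position 4, counted with the first base of the start codon as position 1. Of the 48 initiation factor genes with an ATG and enough sequence before it, 4 had neither (8.33%), beside 6.51% of compared genes. They were EIF1, EIF1B, EIF3B and EIF4E1B, which had 0 counts. The 48 include EIF3K, EIF4E1B and EIF4EBP3, which were not among the compared genes, so the sets behind these shares are unlike. The EIF1 pair lay below 0 in log2 ratio (-1.17 and -0.48), while EIF3B lay at 1.03, so members with neither feature did not share a direction. The principal transcript of EIF5 has 676 bases before its start codon with 6 upstream ATG triplets, and that of EIF1 has 146 bases with 0. At least 1 upstream ATG was found in 16 of the 48 members (33.3%) and in 52.1% of compared genes. These counts depend on the GENCODE transcript chosen. Those of EIF2A and EIF2S3 have 109 and 253 bases before the start codon, with 2 upstream ATG triplets each. The RefSeq starts of these genes, shown further below, lie much closer to the start codon. Other members were not compared in this way. EIF4G2 is known to start at GTG in place of ATG, and the annotated transcript shows that codon.

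Of the eIF2 complex itself, the subunits were not in step. EIF2S1, the alpha subunit that the stress kinases phosphorylate, had 157 CPM in the knockout-labelled library and 105 CPM in the control, a log2 ratio of 0.58. EIF2S2, the beta subunit, had 312 and 296 CPM (1.05; 1.02 to 1.09, with log2 ratios of -0.05 to -0.08 under the other scalings), and EIF2S3, the gamma subunit that binds GTP, had 356 and 429 CPM (0.830; 0.803 to 0.858), again with the knockout-labelled library first. All 3 stayed short of 2-fold, and the count ratio of EIF2S1 to EIF2S3 was 0.440 in the knockout-labelled library and 0.244 in the control. EIF5B, the GTPase of subunit joining, had 363 CPM in the knockout-labelled library and 212 CPM in the control (1.71; 1.64 to 1.78). EIF1AX, the X-linked gene for eIF1A, had 202 CPM in the knockout-labelled library and 149 CPM in the control (1.36; 1.29 to 1.43). EIF1AD, a protein with an eIF1A-like domain, differed by less than its counting error, with 31.0 CPM in the knockout-labelled library and 29.4 CPM in the control.

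The alternative tRNA carriers lay on the low side. EIF2A had 221 CPM in the knockout-labelled library and 367 CPM in the control, a log2 ratio of -0.73. EIF2D, which can place tRNA on the small subunit and acts in ribosome recycling, had 50.7 CPM in the knockout-labelled library and 89.7 CPM in the control, a log2 ratio of -0.81. Neither reached 2-fold. EIF2A overlaps SERP1 on the opposite strand, which had 222 CPM in the knockout-labelled library and 351 CPM in the control, and EIF2D overlaps RASSF5, also on the opposite strand, with 107 counts and 225 counts. The sources used here do not say whether the authors' counting used strand, and the part of these overlaps in the values was not tested.

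The 5 subunits of the exchange factor eIF2B summed to 301 CPM in the knockout-labelled library and 199 CPM in the control, a ratio of 1.51 (1.45 to 1.57). Of the 5, 4 had a log2 ratio above 0 with every scaling tried, beside 58.1% of all genes by library total. EIF2B1, the alpha subunit, had 1080 counts (65.8 CPM) in the knockout-labelled library and 657 counts (30.0 CPM) in the control, a ratio of 2.19 (1.99 to 2.42). It was the only eIF2B subunit past 2-fold, and with the other scalings its log2 ratio was 0.95 to 0.99. EIF2B4, the delta subunit, stood just short of the rule, with 53.9 CPM in the knockout-labelled library and 27.5 CPM in the control and a log2 ratio of 0.94. EIF2B3 and EIF2B5, the gamma and epsilon subunits that form the catalytic pair, had log2 ratios of 0.53 and 0.51. EIF2B2, the beta subunit, had 48.5 CPM in the knockout-labelled library and 49.5 CPM in the control (0.979; 0.893 to 1.07), within counting error by library total, and log2 ratios of -0.15 to -0.18 with the other scalings.

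**Figure D2:**
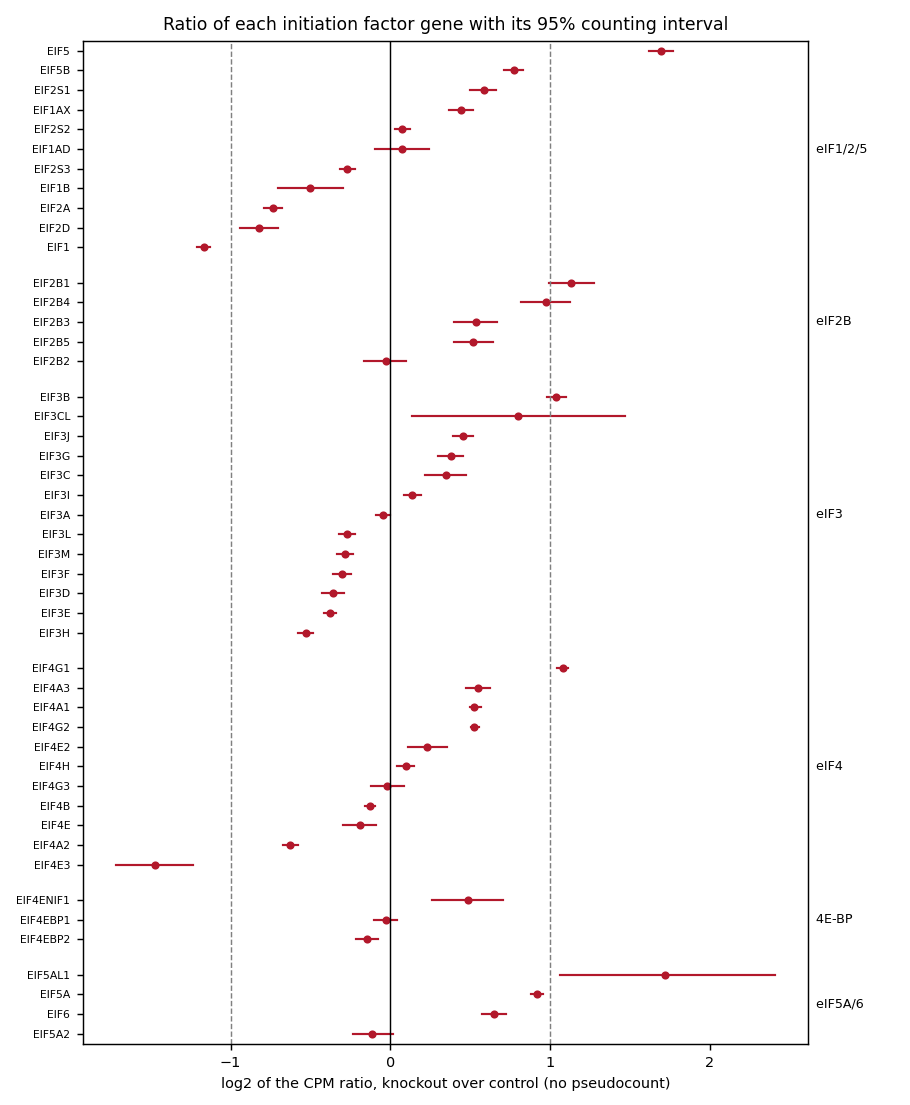
CPM ratio, knockout-labelled library over control, for each compared gene on a log2 axis without pseudocount, with 95% counting intervals as bars and dashed lines at 2-fold. EIF5, EIF5AL1, EIF2B1, EIF4G1 and EIF3B lie beyond the upper line and EIF4E3 and EIF1 beyond the lower line.

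The subunits of eIF3, the largest initiation factor and the platform that holds the small subunit complex together, lay on both sides of 0. Of 14 genes, 13 were compared, 1 was higher (EIF3B), 0 were lower and 12 lay between, beside 6.78% of all genes higher and 5.69% lower. By log2 ratio 6 lay above 0 and 7 below (5 and 8 under upper quartile and median of gene ratios scaling), with a median of -0.05. Of all genes 58.1% lay above 0 and 41.9% below. EIF3B, a core scaffold subunit, had 5649 counts (344 CPM) in the knockout-labelled library and 3672 counts (168 CPM) in the control, a ratio of 2.05 (1.97 to 2.14) whose interval reaches below 2-fold, and its log2 ratio was 0.87 to 0.91 with the other scalings. EIF3A, its partner in the core, had 399 and 412 CPM in the knockout-labelled library and the control, a log2 ratio of -0.05. The count ratio of EIF3B to EIF3A was therefore 0.862 in the knockout-labelled library and 0.407 in the control.

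On the low side were EIF3H (317 CPM in the knockout-labelled library and 458 CPM in the control), EIF3E (546 and 708 CPM in the same order) and EIF3D (167 and 214 CPM). EIF3D can bind the caps of some mRNAs, and EIF3E, EIF3H, EIF3F, EIF3L and EIF3M belong to the structural core built from PCI and MPN domains. EIF3F, EIF3M and EIF3L had log2 ratios of -0.30, -0.29 and -0.27. On the high side, EIF3J, which sits near the mRNA channel, had 258 CPM in the knockout-labelled library and 188 CPM in the control, and EIF3G 166 and 128 CPM. EIF3I had 302 CPM in the knockout-labelled library and 275 CPM in the control, a log2 ratio of 0.14 that became 0.02 to -0.02 with the other scalings. EIF3G and EIF3I are subunits of the module that also holds EIF3B. The summed eIF3 counts were 3449 CPM in the knockout-labelled library and 3684 CPM in the control, a ratio of 0.936 (0.926 to 0.947), and no eIF3 subunit passed 2-fold in either direction other than EIF3B.

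Levels of different genes were compared per kilobase of coding sequence. By that measure EIF3E was the most abundant eIF3 subunit in both libraries, with 409 CPM per coding kilobase in the knockout-labelled library and 531 in the control. EIF3A and EIF3D were among the lower ones at 96.3 and 101 in the knockout-labelled library, and EIF3B stood at 141 there against 68.7 in the control. EIF3C was far below its partners, at 20.7 CPM per coding kilobase in the knockout-labelled library and 16.3 in the control. It shares its sequence with the near-identical copy EIF3CL (47 counts in the knockout-labelled library and 36 in the control), so the counts of both are uncertain where reads fit either copy. Per kilobase of whole transcript EIF3H and EIF3M, which have long untranslated ends, dropped to 80.0 and 60.2 in the knockout-labelled library, so the order within the complex depends on the length used.

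**Figure D3:**
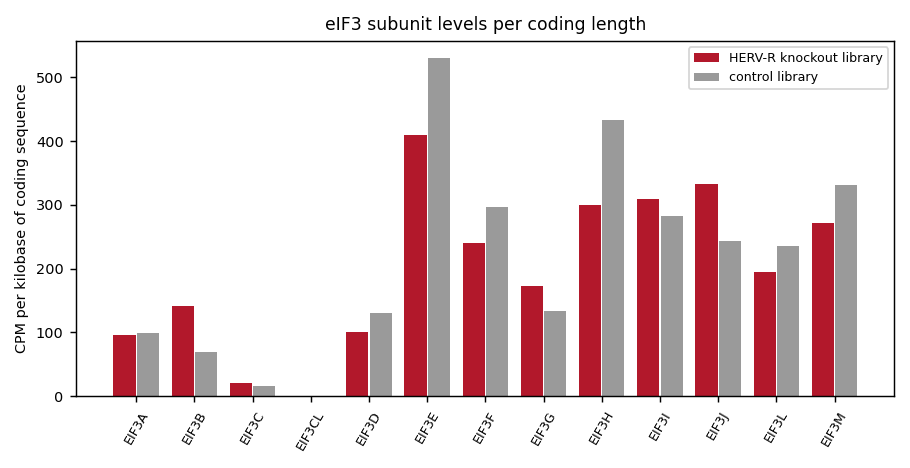
Levels of the 13 compared eIF3 genes in CPM per kilobase of coding sequence, with the knockout-labelled library on the left of each pair and the control on the right. EIF3B is the one subunit with a pair more than 2-fold apart, and EIF3CL is too low to see.

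In the eIF4 group, 1 of 11 compared genes was higher and 1 lower, beside 6.78% and 5.69% of all genes. The balance between paralogues differed. EIF4A1 and EIF4A2 encode near-identical RNA helicases that unwind the mRNA for scanning. EIF4A1 had 12345 counts (752 CPM) in the knockout-labelled library and 11397 counts (521 CPM) in the control, a ratio of 1.44 (1.41 to 1.48). EIF4A2 had 5848 counts (356 CPM) in the knockout-labelled library and 12029 counts (549.7 CPM) in the control, a ratio of 0.648 (0.628 to 0.669). Neither reached 2-fold alone, but EIF4A1 made up 67.9% of the counts of the pair (67.2% to 68.5%) in the knockout-labelled library and 48.7% (48.0% to 49.3%) in the control. The 2 coding sequences have nearly the same length, and per coding kilobase EIF4A1 stood at 618 against 292 CPM for EIF4A2 in the knockout-labelled library and at 428 against 450.2 in the control. Shares within a library do not depend on its scaling. EIF4A3, a helicase of the same family that serves the exon junction complex and not the cap, had 199 CPM in the knockout-labelled library and 136 CPM in the control.

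EIF4G1, the main scaffold of eIF4F, had 16105 counts (982 CPM) in the knockout-labelled library and 10181 counts (465 CPM) in the control, a ratio of 2.11 (2.06 to 2.16). With the other scalings its log2 ratio was 0.92 to 0.95, short of the rule. EIF4G2, also called DAP5, a scaffold without the eIF4E-binding part, had the most counts of any member, with 2064 CPM in the knockout-labelled library and 1429.9 CPM in the control (1.44; 1.42 to 1.47). EIF4G3 had 80.3 CPM in the knockout-labelled library and 81.3 CPM in the control, within counting error by library total, and log2 ratios of -0.14 to -0.17 with the other scalings. The share of EIF4G1 among the 3 scaffolds was 31.4% (31.0% to 31.8%) in the knockout-labelled library and 23.5% (23.1% to 23.9%) in the control.

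The cap-binding genes differed among themselves. EIF4E, the cap-binding subunit of eIF4F, had 75.3 CPM in the knockout-labelled library and 86.1 CPM in the control (0.875; 0.813 to 0.940). EIF4E2, a homologue that represses translation, had 61.1 CPM in the knockout-labelled library and 52.1 CPM in the control (1.17; 1.08 to 1.28). EIF4E3, a divergent cap-binding paralogue, had the lowest ratio of all members, with 181 counts (11.0 CPM) in the knockout-labelled library and 670 counts (30.6 CPM) in the control, 2.78-fold lower (2.35 to 3.29). EIF4E held 51.1% of the family counts in the knockout-labelled library and 51.0% in the control, while EIF4E3 held 7.48% (6.47% to 8.60%) and 18.1% (16.9% to 19.4%), knockout-labelled library first.

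The cofactors of eIF4A and the inhibitors of eIF4E stayed short of 2-fold. EIF4B had 809 CPM in the knockout-labelled library and 885 CPM in the control, and EIF4H 334 and 312 CPM. EIF4EBP1, the best-known inhibitor that mTORC1 inactivates by phosphorylation, had 181 CPM in the knockout-labelled library and 185 CPM in the control (0.979; 0.933 to 1.03), within counting error by library total, and log2 ratios of -0.15 to -0.19 with the other scalings. EIF4EBP2 had 178 and 196 CPM in the same order. The count ratio of EIF4E to EIF4EBP1 was 0.416 in the knockout-labelled library and 0.465 in the control. EIF4ENIF1, which carries eIF4E into the nucleus, had 21.6 CPM in the knockout-labelled library and 15.4 CPM in the control. RNA levels do not report the phosphorylation on which these inhibitors depend.

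**Figure D4:**
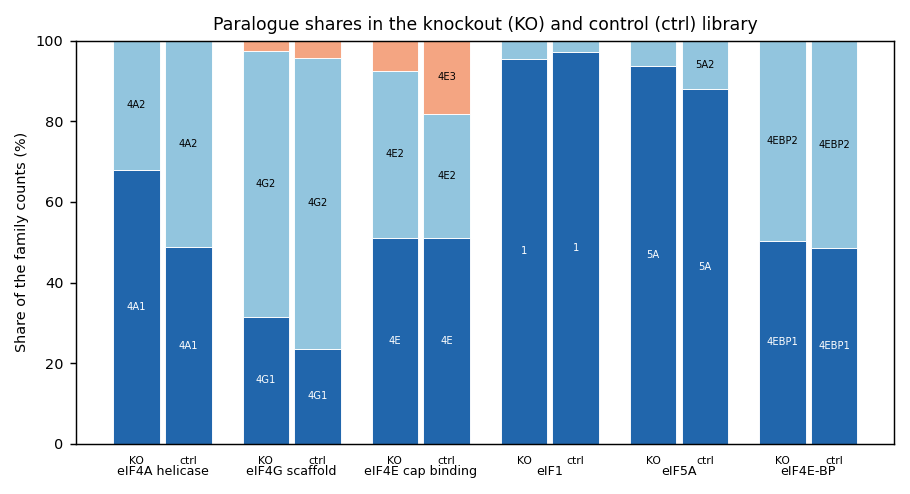
Share of each paralogue in the counts of its family, as stacked bars from 0 to 100 percent, with the knockout-labelled library (KO) left of the control (ctrl) in each pair. EIF4A1 takes 67.9% of its pair in KO and 48.7% in ctrl, and EIF4E3 takes 7.48% of its family in KO and 18.1% in ctrl.

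EIF5A, which helps ribosomes through difficult stretches and carries the modified amino acid hypusine, had 13833 counts (843 CPM) in the knockout-labelled library and 9772 counts (447 CPM) in the control, a ratio of 1.89 (1.84 to 1.94) and just short of the rule at a log2 ratio of 0.92. Its paralogue EIF5A2 had 57.1 CPM in the knockout-labelled library and 61.7 CPM in the control (0.925; 0.850 to 1.01), within counting error by library total, and log2 ratios of -0.23 to -0.27 with the other scalings. EIF5A therefore held 93.7% of the counts of the pair (93.3% to 94.0%) in the knockout-labelled library and 87.9% (87.2% to 88.5%) in the control. EIF5AL1, a retrocopy of EIF5A, passed the rule on 69 counts in the knockout-labelled library against 28 in the control (3.29; 2.09 to 5.30), but reads of EIF5A can be assigned to it and a pseudocount of 5 CPM put its log2 ratio at 0.55. EIF6, which keeps the large ribosomal subunit from joining too early, had 194 CPM in the knockout-labelled library and 124 CPM in the control (1.57; 1.49 to 1.65).

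Members were also sorted by the bases at their transcript start, a rule chosen after their values were seen. TOP mRNAs begin with a C and an unbroken run of pyrimidines (C or T), and mTORC1 is known to control their translation and stability through LARP1. Each line below gives 15 bases before and 15 bases from the transcript start annotated by RefSeq in GRCh38.p14, 5′ to 3′, with the run that begins at the start in capitals where it is C followed by at least 4 pyrimidines. The 8 compared members with such a start come first.
EIF2A (chr3:150546772-150546801, plus strand): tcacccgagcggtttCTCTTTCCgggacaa
EIF2D (chr1:206612451-206612480, minus strand): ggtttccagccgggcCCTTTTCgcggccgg
EIF2S3 (chrX:24054941-24054970, plus strand): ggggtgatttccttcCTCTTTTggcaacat
EIF3D (chr22:36529152-36529181, minus strand): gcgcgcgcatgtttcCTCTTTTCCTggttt
EIF3F (chr11:7987322-7987351, plus strand): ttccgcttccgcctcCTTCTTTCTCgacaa
EIF3M (chr11:32583816-32583845, plus strand): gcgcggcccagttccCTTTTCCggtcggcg
EIF4A2 (chr3:186783562-186783591, plus strand): gttgggcgccgctgtCTTTTCagtcgggcg
EIF4B (chr12:53006441-53006470, plus strand): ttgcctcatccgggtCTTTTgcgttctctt
EIF5 (chr14:103334222-103334251, plus strand): gcggcggcgttgttcagtcagagcgagaac
EIF4G1 (chr3:184314591-184314620, plus strand): tctgtgcggggagccggaaatggttgtgga
EIF2B1 (chr12:123633672-123633701, minus strand): gaggggtacggaagtgcgccggaagtgggg
EIF1 (chr17:41688870-41688899, plus strand): aggcaccgcccctctgccccagtcactgag
The last 4 lines show members past 2-fold without such a start (for EIF5 and EIF4G1, the first of several annotated starts). EIF3B, EIF5AL1 and EIF4E3, the other members past 2-fold, also lack such a start and are not shown.

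RefSeq gave a promoter for 42 of the 50 members. Such a start was found in 8 of the 39 compared members with a promoter (20.5%), beside 682 of 9370 compared genes (7.28%). All 8 members with it had a log2 ratio below 0 (41.9% of all genes did), from -0.81 (EIF2D) to -0.13 (EIF4B), with a median of -0.33. Of the 31 compared members with another start, 23 lay above 0 and 8 below, with a median of 0.46. With each of the 3 other scalings all 8 again lay below 0, and 20 or 21 of the 31 above. Summed, the 9 members with such a start (EIF3K at 0 included) had 2522 CPM in the knockout-labelled library and 3224 CPM in the control, and those with another start 8585 and 6319.8 CPM. In the eIF4A pair, the annotated start of EIF4A2 has the run and that of EIF4A1 does not.

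A list of 8 members known as TOP mRNAs (EIF2A, EIF2S3, EIF3A, EIF3E, EIF3F, EIF3H, EIF3L and EIF4B) shared 4 genes with this set and likewise had 8 of 8 below 0, with a median of -0.29. Its other 4 genes, EIF3A, EIF3E, EIF3H and EIF3L, had no RefSeq promoter here, so their starts were not read. In either set there were 12 compared members, 12 of them below 0 and 0 past 2-fold, against 26 above 0 and 9 below among the other 35. The 35 include EIF2S2, EIF3CL, EIF3G and EIF4EBP1, whose starts were not read either. Over all genes the difference was smaller. Compared genes with such a start had a median log2 ratio of -0.08 (308 above 0 and 374 below). Of these 682 genes, 22 were at least 2-fold higher and 32 lower, beside 6.78% and 5.69% of all genes. Compared genes with another start had a median of 0.13 (5145 above and 3543 below). Without ribosomal protein genes and initiation factors, 630 genes with such a start had a median of -0.01, with 307 above 0 and 323 below. The start sequence is thus a description of these members and was not tested as a cause. The lists were chosen with earlier results of these data known, among them that ribosomal protein genes lay mostly below 0.

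**Figure D5:**
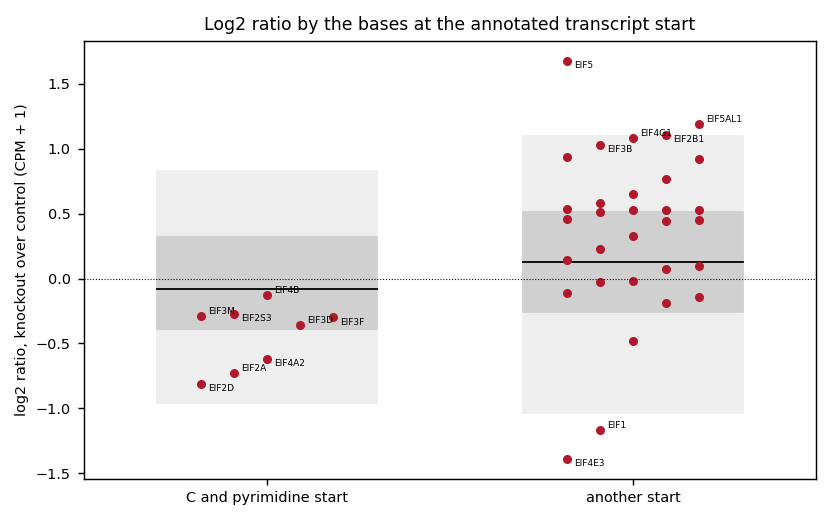
Log2 ratio of CPM + 1, knockout-labelled library over control, for members whose annotated transcript start is a C with at least 4 further pyrimidines, and for members with another start. Shaded bands give the 5th to 95th and 25th to 75th percentiles and the line the median of all compared genes of the same start class; all 8 members on the left lie below 0 and 23 of 31 on the right lie above 0.

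Regulators that act on the initiation factors were set beside them. Of 6 genes for eIF2-alpha kinases and phosphatase subunits, 0 passed 2-fold, beside 6.78% of all genes higher and 5.69% lower. Their median log2 ratio was -0.26, beside 0.12 for all genes. The heme-regulated kinase EIF2AK1 had 308 CPM in the knockout-labelled library and 299 CPM in the control, and the double-stranded RNA kinase EIF2AK2 (PKR) 216 and 207 CPM. Chosen after their values were seen, the endoplasmic reticulum kinase EIF2AK3 (PERK) had 20.1 CPM in the knockout-labelled library and 32.6 CPM in the control, and the stress-induced phosphatase subunit PPP1R15A 133 and 214 CPM. Both stood near log2 ratios of -0.67 and -0.68, on the low side of the 6.

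Of 12 genes for mTORC1, its regulators and eIF4E kinases, 0 passed, beside 6.78% of all genes higher and 5.69% lower. Of the 12, 9 lay above 0 (58.1% of all genes did), with a median of 0.45 beside 0.12 for all genes. The list mixes activators and inhibitors of mTORC1, so its median gives no direction for the pathway. The inhibitors TSC2, TSC1 and AKT1S1 had log2 ratios of 0.84, 0.69 and 0.64 and DEPTOR -0.44, and the activator RHEB had -0.56. The rest of the list, apart from MTOR and MKNK2 below, lay above 0. MLST8, RPTOR, RPS6KB1, RPS6KB2 and MKNK1 had log2 ratios of 0.38, 0.25, 0.52, 0.47 and 0.42. All genes of this list other than MTOR and MKNK2 were named after their values were seen. MTOR itself had 184 CPM in the knockout-labelled library and 104 CPM in the control (1.77; 1.68 to 1.87), while MKNK2, an eIF4E kinase, had 170.4 and 259 CPM (0.658; 0.629 to 0.689). Of 12 poly(A)-binding and mRNA-side genes, 1 was higher and 0 were lower, beside 6.78% and 5.69% of all genes. This was DHX29, a helicase that helps scanning through structured leaders. It had 1674 counts (102 CPM) in the knockout-labelled library and 936 counts (42.8 CPM) in the control, a ratio of 2.39 (2.20 to 2.59). Among genes of this list chosen after their values were seen, LARP1 had 438 CPM in the knockout-labelled library and 268 CPM in the control (1.63; 1.58 to 1.69), and PABPC1, the poly(A)-binding protein and itself a known TOP mRNA, 2646 and 3764 CPM (0.703; 0.695 to 0.711).

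Among 5 genes of recycling, reinitiation and eIF5 mimicry, 0 passed, beside 6.78% of all genes higher and 5.69% lower. Their median log2 ratio was 0.22, beside 0.12 for all genes. ABCE1, which splits ribosomes after termination, had 305 CPM in the knockout-labelled library and 206 CPM in the control, and BZW1, an eIF5 mimic, 334 and 303 CPM. The hypusine enzymes of eIF5A went apart, with DOHH at 26.0 CPM in the knockout-labelled library and 13.3 CPM in the control and DHPS at 50.7 and 68.8 CPM; neither passed 2-fold. The mitochondrial initiation factors MTIF2 and MTIF3 had log2 ratios of 0.12 and -0.26.

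Several members share sequence with other rows of the table. Rows named as pseudogenes of members held 626 counts in the knockout-labelled library and 884 in the control, which is 0.286% and 0.333% of the members' own counts. The share was highest for EIF1AX, at 7.21% in the knockout-labelled library and 6.79% in the control, and adding these counts to the parents left the same numbers of members past 2-fold. Of the members, 24 overlap another gene that had counts, 19 of them on the opposite strand only. The 6 counts of EIF4EBP3 stand beside 1748 counts in the knockout-labelled library and 1075 in the control for ANKHD1-EIF4EBP3, a read-through gene that contains it.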

How the data were processed

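The authors deposited 1 table of raw counts per gene for each library, with 58173 rows and no normalization. Reads were aligned with TopHat to GRCh38, per the submitters' processing notes; the sources used here do not give the versions, the counting program, the annotation or the use of strand. Libraries were made from total RNA with a directional kit, per the labels' protocols. Rows of 1 symbol were summed and divided by the library total to give CPM. Ratios carry exact Clopper-Pearson intervals conditional on the summed count, and shares exact binomial intervals; PCR duplicates are not independent molecules, so both cover counting error only. The code was tested on simulated data. Every compared member is reported; of related genes, those past 2-fold or else the 2 most abundant, with others marked. Members and lists were chosen with earlier results of these data known. Coding lengths, start codons and overlaps come from GENCODE 29, where the transcript was the complete one with the best APPRIS rank, support level and length; lengths from RefSeq proteins had been planned. Transcript starts come from RefSeq (GRCh38.p14). Alternatives were a pseudocount of 0.1 or 5 CPM, a filter at 5 CPM or none, a rule of 1.5-fold or 3-fold, and TMM, upper quartile (edgeR 4.0.16) and median of gene ratios (DESeq2 1.42.0) scaling. Python 3.11.15 and scipy 1.17.1 were used.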

Additional observations from a re-analysis of the deposited data

How the results depend on the processing

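With TMM, upper quartile and median of gene ratios scaling, 2 members were at least 2-fold higher in place of 5. Of all genes, 4.75%, 4.54% and 4.30% were higher, in that order. The median log2 ratio of the members was -0.03, -0.05 and -0.06 in place of 0.10, while that of all genes was 0.00, -0.01 and -0.03. The members that lost the rule were EIF2B1, EIF4G1 and EIF3B, since these scalings shift the CPM ratios by -0.12, -0.14 and -0.16 (log2). The shift is less for low genes with the pseudocount. A size rule of 1.5-fold gave 9 higher and 5 lower, beside 20.3% and 13.2% of all genes. One of 3-fold gave 1 higher (EIF5) and 0 lower, beside 0.933% and 1.81% of all genes. Pseudocounts of 0.1 and 5 CPM, no filter, a minimum mean of 5 CPM and added pseudogene counts gave 4 or 5 higher and 2 lower. Of all genes, 3.37% to 8.89% were higher and 2.93% to 7.02% lower with these settings. The member lost at 4 was EIF5AL1. Pseudogene counts and transcript length were chosen after the data had been seen. No paired analysis was possible because there was 1 library per group. Depth leaves wide ratio intervals for EIF3CL and EIF5AL1, and no ratio was taken for EIF4EBP3 (6 counts in the knockout-labelled library and 0 in the control). The counting intervals of EIF2B1 (1.99 to 2.42), EIF3B (1.97 to 2.14) and EIF2B4 (1.76 to 2.18) include 2-fold.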

Other observations

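The sequence CACGTG, the E-box that MYC and related factors bind, reads the same on both strands and was searched from 250 bases before to 50 bases after each RefSeq transcript start. It was present in 9 of the 39 compared members with a promoter (23.1%) and in 1177 of 9370 compared genes (12.6%). The 9 were EIF1B, EIF2B3, EIF3F, EIF4A3, EIF4B, EIF4E, EIF4G1, EIF4H and EIF5A2. They had a median log2 ratio of -0.11 (4 above 0 and 5 below), beside 0.12 for all genes (58.1% above and 41.9% below). The 30 compared members without it had a median of 0.39 (19 above and 11 below). The sums did not show this contrast, as both were higher in the knockout-labelled library. All members with the sequence summed to 2790 CPM there and 2330 CPM in the control. Those with a promoter without it summed to 8316 and 7213 CPM. The split was not tested over all genes or with the other scalings. A match is a description of the sequence and says nothing of binding in these cells.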
